A study of Mus musculus with 6 samples.

Results

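Genes of cholesterol and fatty acid synthesis were followed in bone marrow-derived macrophages, cells matured in culture from marrow precursors, of Ube3a knockout mice. They are 37 of the 16836 genes in the deposited table, picked by symbol: the SREBP transcription factors and their regulators (5 genes), the enzymes of the sterol arm (18 genes), a sterol carrier and a sterol esterifying enzyme (2 genes), and the enzymes of the fatty acid arm (12 genes). The study set macrophages of Ube3a-/- mice, labelled UBE3A KO (KO), against those of wild-type littermates (WT), with 3 polyadenylated RNA libraries per genotype. The targeted gene, Ube3a, makes an enzyme that marks other proteins with ubiquitin. The libraries are called KO1 to KO3 and WT1 to WT3 here, after their titles. The labels name no treatment, and describe neither the knockout allele, the age nor the sex of the mice, nor whether each library came from its own mouse. The p-values therefore measure the spread between these libraries, which may be technical in part.

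Macrophages make cholesterol and fatty acids and also take them up. In mammals both pathways are driven by the SREBP factors, which are held in the endoplasmic reticulum by Scap and the Insig proteins while sterols are plentiful, and are carried to the Golgi and cut free when sterols run low. Srebf2 encodes the form best known for the sterol genes, and Srebf1 the form best known for the fatty acid genes. The liver X receptors (LXR), which sense oxidised sterols, raise Srebf1, the stearoyl-CoA desaturases and the cholesterol exporters. SREBP proteins bind sterol regulatory elements, usually beside a CCAAT box bound by NF-Y.

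Of the sterol arm genes with a promoter window, all but 1 had a CCAAT box in at least one window, and 1 had the letters of a sterol regulatory element core. RefSeq promoter windows (GRCm38.p6) were at hand for 30 of the 37 genes, in 40 windows, and the 250 bases before each start were searched on both strands. CCAAT was found for 14 of 15 sterol arm genes (93.3%, all but Acat2), 5 of 9 fatty acid arm genes (55.6%) and 4 of 5 regulators, against 41.1% of the 8841 tested genes with a window. Per window, it was in 14 of 18 of the sterol arm (77.8%) and 5 of 11 of the fatty acid arm (45.5%). For the regulators it was in 5 of 10 windows (50%), where 35.9% of the windows of tested genes had it. The GC box GGGCGG was found for 14 of 15 sterol arm genes, 5 of 9 fatty acid arm genes and 5 of 5 regulators, against 64.6% of tested genes. The E-box CACGTG was found for 3 of 15 sterol arm genes (20%) and 1 of 9 fatty acid arm genes (11.1%). Among the regulators it was found for 2 of 5 (40%), where 10.2% of tested genes had it. Per window, the regulators had the GC box in 7 of 10 and the E-box in 2 of 10. Of the windows of tested genes, 58% and 8.51% had them. The sterol regulatory element core TCACNCCAC was found for Hmgcs1 alone, against 1.21% of tested genes. None of these motifs contains another, and the core is the longest. A match to these letters is not a shown binding site, and genes with several windows have more chances of a match. These 6 stretches are printed because they hold the most CCAAT boxes of their arm, or the element core, among those lying wholly outside the gene, with ties taken in alphabetical order. Each holds the 180 bases before the start, with CCAAT on either strand (ATTGG on the printed strand when reversed) and the element core in capitals. Hmgcs1 is at chr13:119690171-119690350 (plus strand), Mvk at chr5:114444089-114444268 (plus strand), Ebp at chrX:8193513-8193692 (minus strand), Mvd at chr8:122443423-122443602 (minus strand), Fasn at chr11:120824548-120824727 (minus strand) and Insig2 at chr1:121332590-121332769 (minus strand).
Hmgcs1: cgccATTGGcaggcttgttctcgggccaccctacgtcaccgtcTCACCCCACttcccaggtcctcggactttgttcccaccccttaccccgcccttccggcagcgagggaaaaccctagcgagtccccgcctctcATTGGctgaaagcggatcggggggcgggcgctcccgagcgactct
Mvk: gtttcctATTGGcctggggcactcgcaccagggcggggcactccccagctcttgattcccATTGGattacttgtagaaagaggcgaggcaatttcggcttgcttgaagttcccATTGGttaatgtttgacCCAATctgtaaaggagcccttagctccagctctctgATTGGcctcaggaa
Ebp: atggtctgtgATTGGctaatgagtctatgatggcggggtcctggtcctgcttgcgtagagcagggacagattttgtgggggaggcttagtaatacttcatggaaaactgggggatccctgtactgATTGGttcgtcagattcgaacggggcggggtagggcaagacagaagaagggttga
Mvd: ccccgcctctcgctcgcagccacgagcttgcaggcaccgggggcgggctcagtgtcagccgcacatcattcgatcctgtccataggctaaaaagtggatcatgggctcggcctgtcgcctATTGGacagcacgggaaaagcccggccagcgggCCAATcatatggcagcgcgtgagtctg
Fasn: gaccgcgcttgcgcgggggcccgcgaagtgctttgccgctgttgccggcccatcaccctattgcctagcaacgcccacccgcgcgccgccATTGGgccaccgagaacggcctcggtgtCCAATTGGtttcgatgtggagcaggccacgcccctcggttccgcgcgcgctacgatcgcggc
Insig2: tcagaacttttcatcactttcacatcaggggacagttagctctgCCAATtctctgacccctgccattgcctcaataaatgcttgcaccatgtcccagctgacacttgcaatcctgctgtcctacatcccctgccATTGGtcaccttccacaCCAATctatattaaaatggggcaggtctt
Hmgcs1 carries 2 CCAAT boxes and the core in this stretch, Mvk 5 CCAAT boxes, Ebp and Mvd 2 each, and Fasn and Insig2 3 each. In Fasn a pair of them overlap as CCAATTGG.

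The libraries held 25454862 to 32294791 reads in KO and 28651459 to 35517269 in WT, so that 1 read was worth 0.0277 to 0.0400 CPM, reads scaled to one shared library size. Ube3a checked the labels: it stood at 69.7, 61.2 and 77.0 CPM in KO1 to KO3, against 207, 193.7 and 178 CPM in WT1 to WT3, and fell with a log2 fold change of −1.47 (limma with Benjamini-Hochberg adjustment, adjusted p = 0.00444). Xist, the RNA of the silenced X chromosome, was near 0 in KO2 (0.900 CPM) and WT2 (0.495 CPM) and at 1087 to 1329 CPM in the other libraries, so that the replicate 2 libraries stand apart in both genotypes. The 10 macrophage markers summed to 14030 to 16650 CPM in KO and 15210 to 16020 CPM in WT, most of it Lyz2 (8859 to 11220 CPM in KO and 10220 to 10630 CPM in WT). Among them the Fc receptor gene Fcgr1 stood at 188, 154 and 174 CPM in KO1 to KO3 against 85.6, 162 and 118 CPM in WT1 to WT3, with a log2 fold change of 0.54 (unadjusted p = 0.0286, adjusted p = 0.866, limma with Benjamini-Hochberg adjustment). Cd68 had a fold change of 0.23. The neutrophil markers (9 genes) summed to 26.2 to 33.8 CPM in KO and 29.3 to 33.9 CPM in WT. Csf3r was the largest part of that sum in every library, with a log2 fold change of 0.31. The other 4 tested neutrophil markers were lower in KO: S100a8 at −0.37, S100a9 at −0.59, Ltf at −0.25 and Ngp at −0.63. None of the 5 was called, with a smallest adjusted p of 0.866 (limma with Benjamini-Hochberg adjustment). The sum therefore does not show that neutrophil RNA was even between genotypes. The adipocyte markers, of which only Fabp4 was analysed here, gave 4.35 to 7.12 CPM in KO and 4.52 to 6.05 CPM in WT. The dendritic cell, lymphocyte and stromal lists each summed to at most 4.44 CPM in KO and 4.16 CPM in WT. The 8 stem and progenitor markers summed to 34.4 to 45.4 CPM in KO and 37.4 to 88.1 CPM in WT. Cd34 made up most of that sum, at 25.8, 24.5 and 34.0 CPM in KO1 to KO3 against 77.3, 28.9 and 74.1 CPM in WT1 to WT3. In bulk RNA, fewer cells of a type and less RNA per cell cannot be told apart.

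None of the 37 synthesis genes was called changed with genotype. All 37 passed the filter of at least 1 CPM in at least 3 libraries, and 0 reached an adjusted p under 0.05 (limma with Benjamini-Hochberg adjustment over 12118 genes), where 0.0165% of tested genes did (0.00825% higher and 0.00825% lower in KO). The smallest adjusted p among them was 0.866. At an unadjusted p under 0.05 they counted 0, against 4.13% of tested genes, and limma-voom on the recovered reads also called 0. No gene of the 37 had its KO and WT libraries apart without overlap, which held for 9.95% of tested genes (4.41% higher and 5.55% lower in KO). The fold changes were positive for 26 and negative for 11, with a median of 0.08 on log2(CPM + 1), where the median of all tested genes was 0.00146. The medians were 0.08 in the sterol arm (14 positive, 4 negative), 0.07 in the fatty acid arm (9 positive, 3 negative) and 0.10 among the regulators (3 positive, 2 negative).

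These data bound the size of a genotype difference rather than showing its absence. For 28 of the 37 genes the 95% interval of the fold change lay within 1.5-fold in either direction, among them 14 of 18 in the sterol arm and 8 of 12 in the fatty acid arm. That held for 90.4% of all tested genes. Within 2-fold lay 35 of the 37, all 18 of the sterol arm and 10 of 12 of the fatty acid arm, against 98.3% of tested genes. The exceptions were Scd1 and Scd2, whose intervals reached 1.83 and 1.205 on the log2 scale.

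**Figure D1:**
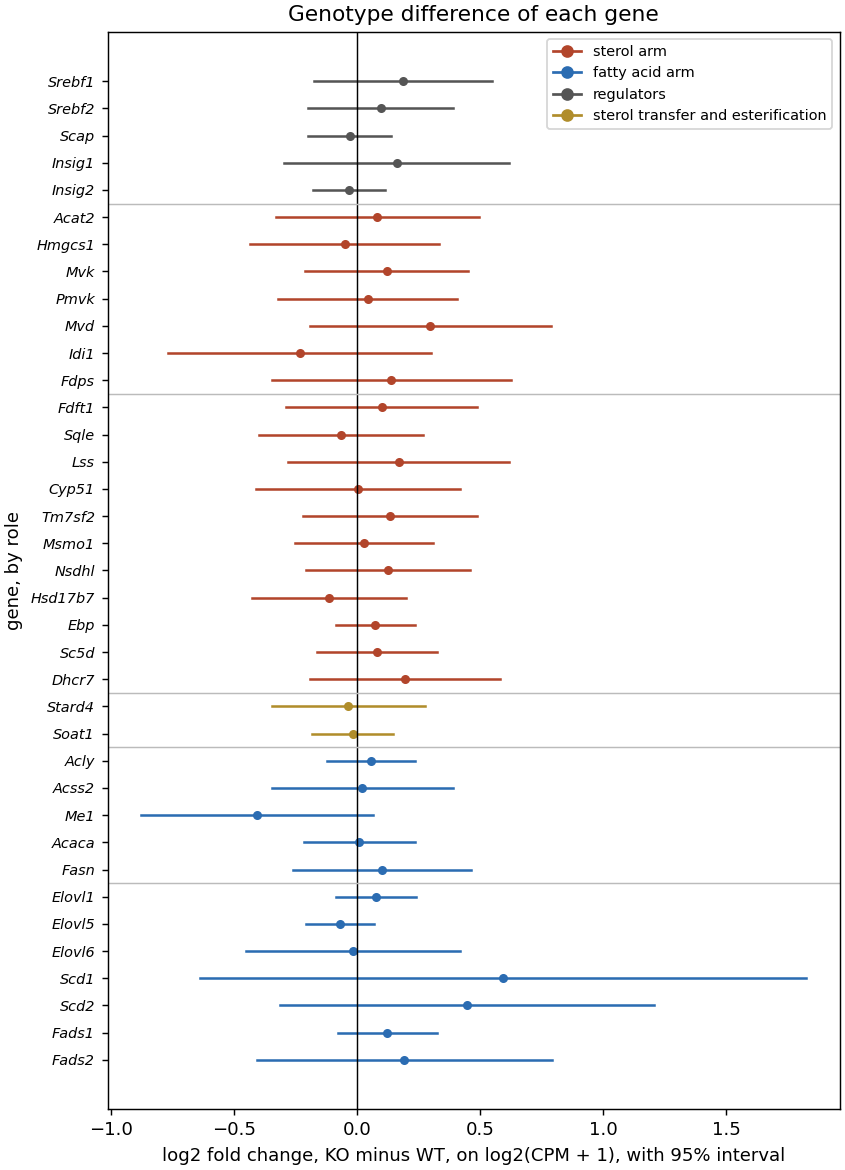
Log2 fold change of each gene, KO minus WT, on log2(CPM + 1), with its 95% interval from limma (3 libraries per genotype), grouped by role. Every interval crosses 0, those of Insig2, Elovl5, Scap and Soat1 are narrow, and those of Scd1 and Scd2 are the widest.

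Among the regulators, both SREBP genes were highest in KO2 and lowest in WT1. Srebf1 stood at 109, 147 and 112 CPM in KO1 to KO3, against 85.6, 119 and 118 CPM in WT1 to WT3. The KO libraries lay on both sides of WT2 and WT3, and the log2 fold change was 0.19 (95% interval −0.17 to 0.55), or 0.03 without WT1. Srebf2 stood at 221, 303 and 248 CPM in KO1 to KO3, against 213, 238 and 268 CPM in WT1 to WT3. Its fold change of 0.10 rested on KO2, and was −0.03 without that library. Per kilobase of exon Srebf2, at 34.6 CPM, was above Srebf1, at 20.4 CPM.

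Scap, which escorts the SREBP proteins to the Golgi, varied little. It stood at 48.0, 49.6 and 44.5 CPM in KO1 to KO3, against 46.3, 47.2 and 51.7 CPM in WT1 to WT3 (log2 fold change −0.03). Part of its exons, with 9.96% of its 50-base words, overlaps an antisense gene model. The 2 Insig genes, which retain Scap in the endoplasmic reticulum, behaved differently from each other over the libraries. Insig1, itself an SREBP target, stood at 58.0, 95.1 and 90.5 CPM in KO1 to KO3, against 58.0, 74.7 and 82.3 CPM in WT1 to WT3. KO1 and WT1 were the low libraries, and the log2 fold change of 0.16 was 0.38 without KO1 and 0.02 without WT1. Insig2 stood at 40.4, 41.6 and 41.1 CPM in KO1 to KO3, against 41.8, 44.1 and 40.4 CPM in WT1 to WT3. Its highest library exceeded its lowest by 1.09-fold, a range wider than that of only 5.65% of tested genes.

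The first steps of the sterol arm lead from acetyl-CoA through mevalonate to farnesyl diphosphate, and the mean level of their 7 genes differed by 0.06 between KO and WT on the log2 scale, under the SD among libraries of either genotype (0.29 in KO and 0.22 in WT). Mvd, mevalonate diphosphate decarboxylase, had the largest fold change of the sterol arm. It stood at 14.6, 24.9 and 18.8 CPM in KO1 to KO3, against 12.6, 14.2 and 19.9 CPM in WT1 to WT3 (log2 fold change 0.30, 95% interval −0.19 to 0.79). Only KO2 lay above every WT library, and the fold change was 0.11 without KO2 and 0.48 without WT3. Idi1, isopentenyl diphosphate isomerase, went the other way. It stood at 4.88, 5.49 and 9.03 CPM in KO1 to KO3, against 6.92, 6.12 and 10.1 CPM in WT1 to WT3 (log2 fold change −0.23, 95% interval −0.77 to 0.30). The replicate 3 libraries were the high ones in both genotypes, with a fold change of −0.47 without KO3 and −0.05 without WT3, and KO1, at 122 reads, gave the thinnest count of all 37 genes.

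Fdps, farnesyl diphosphate synthase, spread more widely in KO than in WT. It stood at 5.36, 11.0 and 8.57 CPM in KO1 to KO3, against 6.88, 7.004 and 7.68 CPM in WT1 to WT3, so that the WT libraries lay between KO1 and KO3. Its log2 fold change was 0.14, and −0.07 without KO2. Acat2, the cytosolic thiolase that opens the pathway, had a fold change of 0.08, and Hmgcs1, the cytosolic HMG-CoA synthase, one of −0.05. The mevalonate kinase gene Mvk had 0.12 and the phosphomevalonate kinase gene Pmvk 0.04. Hmgcs1 was the most abundant of these 7 per kilobase, at 25.9 CPM, and Fdps the least, at 1.84 CPM. Reads of Acat2, Fdps and Idi1 may be split with other genes: 39.1% of the 50-base words of Acat2 recur in Acat3, 26.2% of those of Fdps and 25.3% of those of Idi1 in other genes or pseudogenes.

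The 11 genes from squalene to cholesterol had fold changes between −0.11 (Hsd17b7) and 0.19 (Dhcr7). Dhcr7, the reductase that gives cholesterol from its immediate precursor, stood at 38.3, 51.8 and 45.6 CPM in KO1 to KO3, against 30.3, 46.9 and 42.1 CPM in WT1 to WT3. WT1 was the low library, without which the fold change was 0.01, and the others overlapped. Lss, lanosterol synthase, stood at 38.8, 62.6 and 54.4 CPM in KO1 to KO3, against 36.6, 45.6 and 55.4 CPM in WT1 to WT3 (log2 fold change 0.17). KO1 and WT1 were again the low libraries, and the fold change was 0.36 without KO1 and 0.02 without WT1.

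The other 9 genes of these steps lay between −0.11 and 0.13 on the log2 scale. Fdft1, squalene synthase, had a fold change of 0.10, and Sqle, the squalene epoxidase that is a control point of the pathway, one of −0.07. Cyp51, the lanosterol demethylase, had 0.00481, and the sterol reductase gene Tm7sf2 0.13. The enzymes that strip methyl groups from the sterol ring followed, with Msmo1 at 0.03, Nsdhl at 0.13 and Hsd17b7 at −0.11. The isomerase gene Ebp had 0.07 and the desaturase gene Sc5d 0.08. Fdft1 shares 26.5% of its 50-base words with other genes, among them Ctsb on the opposite strand over 774 bases, and Tm7sf2 shares 9.87% with Vps51 on the same strand. Nsdhl and Ebp lie on the X chromosome, where the replicate 2 libraries differ in Xist. For Nsdhl the replicate 2 libraries were the middle ones in both genotypes: it stood at 25.9, 34.8 and 35.6 CPM in KO1 to KO3 against 25.1, 29.1 and 33.5 CPM in WT1 to WT3. Ebp was highest in KO2, at 51.9, 57.3 and 54.7 CPM in KO1 to KO3 against 48.9, 52.8 and 53.9 CPM in WT1 to WT3.

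Stard4, a sterol carrier protein induced with the pathway, and Soat1, which esterifies cholesterol for storage, had fold changes of −0.04 and −0.02. Stard4 stood at 88.1, 118 and 129 CPM in KO1 to KO3, against 106, 110.5 and 123 CPM in WT1 to WT3, lowest in KO1. Soat1 stood at 335, 308 and 321 CPM in KO1 to KO3, against 343, 333 and 302 CPM in WT1 to WT3. Soat1 was highest in WT1 and KO1, where most sterol arm genes were low, with an all-library range of 1.14-fold.

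**Figure D2:**
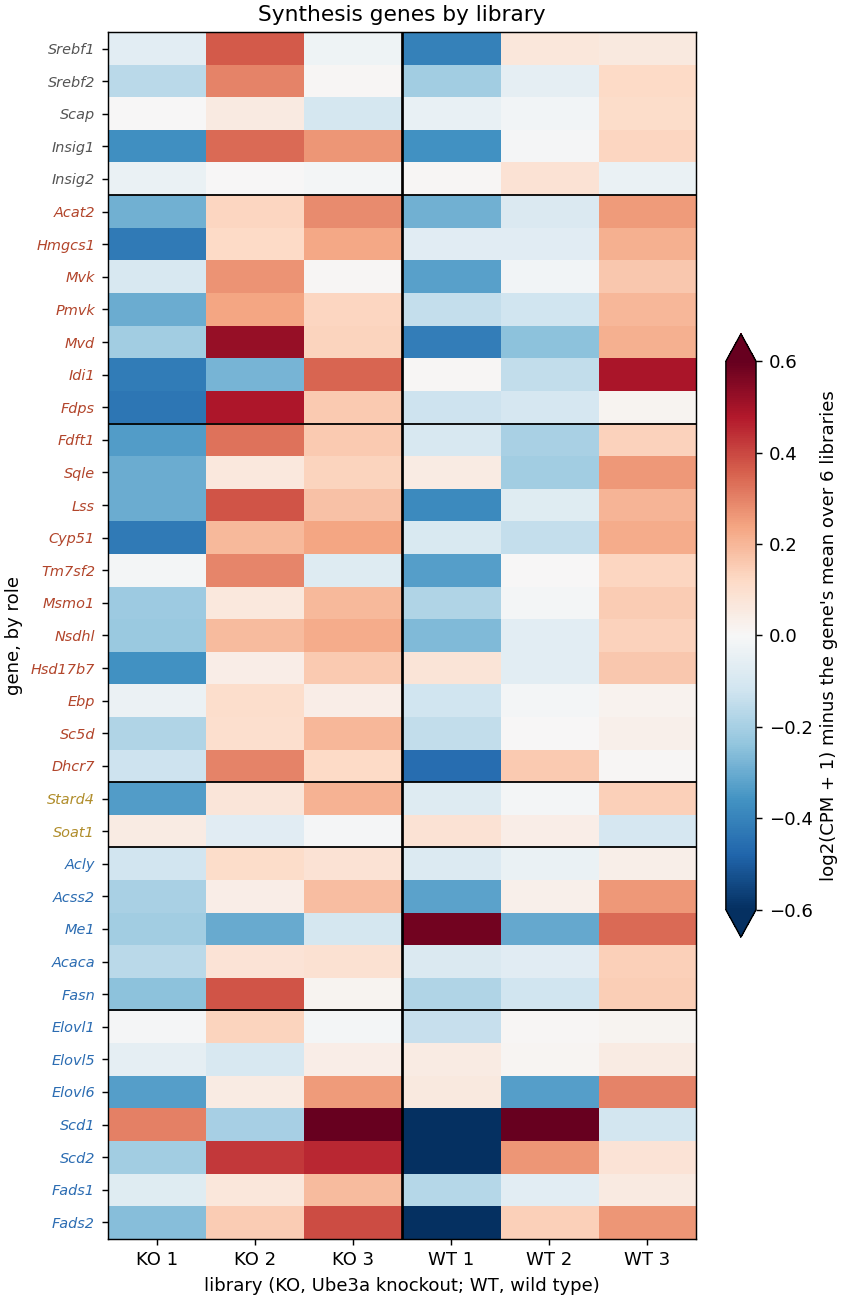
Deviation of each gene from its own mean over the 6 libraries, on log2(CPM + 1), with genes in rows by role (regulators, sterol arm in its 2 stretches, transfer and esterification, fatty acid arm in its 2 stretches) and libraries in columns. The columns of KO1 and WT1 are mostly blue (low) in the sterol arm, those of KO2, KO3 and WT3 mostly red, and values of Scd1, Scd2 and Fads2 in WT1 and of Scd1 in KO3 and WT2 lie beyond the ends of the colour scale.

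In the fatty acid arm, the 5 genes that supply carbon and NADPH and build the chain gave fold changes from −0.41 to 0.10. Me1, the cytosolic malic enzyme that yields NADPH, was the one furthest below 0 of all 37 genes. It stood at 16.4, 15.3 and 17.6 CPM in KO1 to KO3, against 28.9, 15.2 and 24.4 CPM in WT1 to WT3 (log2 fold change −0.41, 95% interval −0.88 to 0.06, unadjusted p = 0.0806, adjusted p = 0.866 by limma with Benjamini-Hochberg adjustment). WT1 and WT3 were above every KO library, and WT2 was below every KO library. The fold change was −0.66 without WT2 and −0.22 without WT1. Of the 50-base words of Me1, 28.3% recur in other models, mostly in the processed pseudogene Gm7049. Fasn, fatty acid synthase, stood at 207, 319.5 and 249 CPM in KO1 to KO3, against 217, 226 and 272 CPM in WT1 to WT3 (log2 fold change 0.10, and −0.06 without KO2). KO2 was the only library above WT3. Acly, the ATP citrate lyase that makes cytosolic acetyl-CoA, had a fold change of 0.06. Acss2, which makes it from acetate, had 0.02, and Acaca, the acetyl-CoA carboxylase, 0.00752. Acaca shares 30.4% of its 50-base words, nearly all with the pseudogene Gm5182.

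The stearoyl-CoA desaturase genes Scd1 and Scd2 gave both the largest fold changes and the widest spreads of the 37 genes. Scd1, whose enzyme makes monounsaturated fatty acids, stood at 17.4, 11.98 and 24.6 CPM in KO1 to KO3, against 4.002, 24.8 and 12.8 CPM in WT1 to WT3. Its highest WT library exceeded its lowest by 6.20-fold, the whole KO range lay inside the WT range, and the log2 fold change of 0.59 had an interval from −0.64 to 1.83. Without WT1 it was −0.05. Scd2, its neighbour on chromosome 19, stood at 493, 765 and 779.5 CPM in KO1 to KO3, against 281, 685 and 603 CPM in WT1 to WT3 (log2 fold change 0.45, 95% interval −0.31 to 1.205). WT1 was the low library here too, and the fold change was 0.05 without it. The orders of the other libraries differed between the paralogs, which share 2.97% of their 50-base words or less. Per kilobase, Scd2 was the most abundant of the 37 genes, at 110.0 CPM, and Scd1 stood at 3.26 CPM.

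Fads2, a fatty acid desaturase of the polyunsaturated branch, stood at 31.7, 42.3 and 50.3 CPM in KO1 to KO3, against 23.1, 42.1 and 45.9 CPM in WT1 to WT3 (log2 fold change 0.19, and −0.11 without WT1). Fads1, its neighbour and partner in that branch, had a fold change of 0.12 with a narrower interval, −0.08 to 0.32. The elongase fold changes were close to 0, with Elovl1 (very long chains) at 0.08, Elovl5 (polyunsaturated chains) at −0.07 and Elovl6 (palmitate) at −0.02. Elovl6 still spread widely over the libraries, from 21.4 CPM in WT2 to 33.6 CPM in WT3, with an interval from −0.45 to 0.42. Elovl5 was among the steadiest genes, with 156, 151 and 166 CPM in KO1 to KO3 against 167, 163 and 167 CPM in WT1 to WT3.

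**Figure D3:**
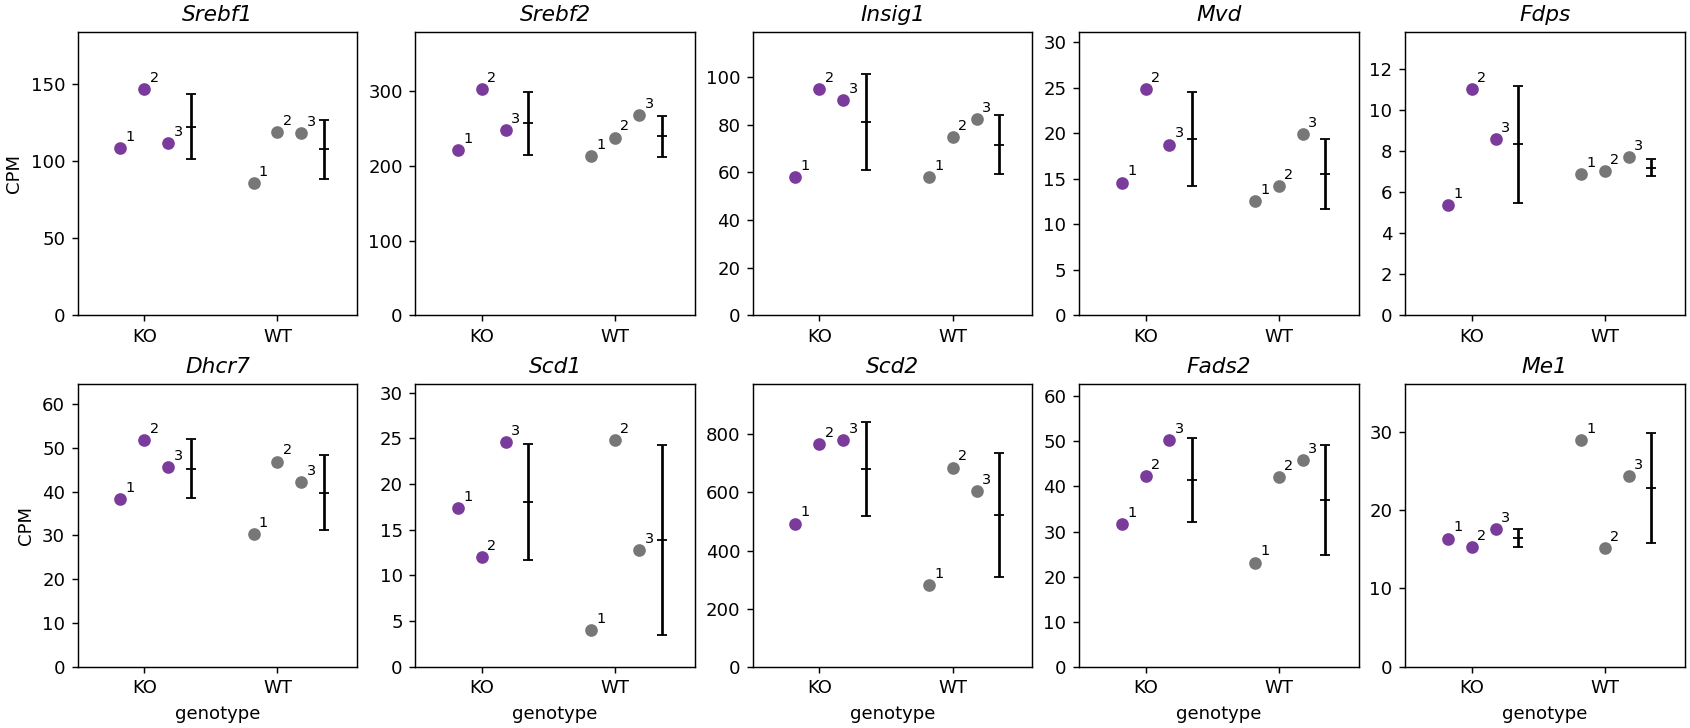
CPM of 10 genes by library, KO left of WT, with each library numbered and the mean with its SD (n = 3) beside it, on axes that start at 0. WT1 is the lowest library of Srebf1, Srebf2, Mvd, Dhcr7, Scd1, Scd2 and Fads2, and KO2 the highest of Srebf1, Srebf2, Insig1, Mvd, Fdps and Dhcr7.

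The arms were then contrasted by library, as the mean deviation of their genes from each gene's own mean on log2(CPM + 1). The sterol arm stood at −0.26, 0.20 and 0.16 in KO1 to KO3, against −0.18, −0.08 and 0.17 in WT1 to WT3, or 0.03 ± 0.25 in KO and −0.03 ± 0.18 in WT (SD, n = 3 each). The fatty acid arm stood at −0.13, 0.07 and 0.20 in KO1 to KO3, against −0.30, 0.03 and 0.13 in WT1 to WT3, or 0.05 ± 0.16 in KO and −0.05 ± 0.22 in WT. Both genotype differences, 0.06 for the sterol arm and 0.09 for the fatty acid arm, were smaller than the SD among libraries of either genotype. Each arm was low in KO1 and WT1 and high in KO3 and WT3, and KO2 lay above WT2 in both.

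The balance between the arms also overlapped between genotypes. The sterol arm minus the fatty acid arm was −0.13, 0.13 and −0.04 in KO1 to KO3, against 0.11, −0.10 and 0.04 in WT1 to WT3, a difference of −0.03 between genotype means. Its SD was 0.13 in KO and 0.11 in WT. The sterol arm leaned lower than the fatty acid arm in KO1 and WT2, and higher in KO2 and WT1. In summed CPM, the sterol arm held 683, 927.5 and 936 CPM in KO1 to KO3 against 751, 786 and 934 CPM in WT1 to WT3. The fatty acid arm held 1561, 2038 and 2025 CPM in KO1 to KO3 against 1352, 1817 and 1840 CPM in WT1 to WT3, with Scd2 as the largest part in all 6 libraries.

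The 2 stretches of the fatty acid arm were also described apart, and the difference between them was not tested. The carbon, NADPH and chain genes stood at −0.18, 0.06 and 0.06 in KO1 to KO3, against −0.02, −0.10 and 0.19 in WT1 to WT3, a difference of −0.04 (SD 0.14 in KO and 0.15 in WT). The elongation and desaturation genes stood at −0.09, 0.08 and 0.30 in KO1 to KO3, against −0.50, 0.12 and 0.09 in WT1 to WT3, a difference of 0.19 (SD 0.20 in KO and 0.35 in WT). The low value of WT1 came with the desaturases Scd1, Scd2 and Fads2. Within the sterol arm both stretches were lowest in KO1, then WT1, then WT2. The mevalonate genes stood at −0.31, 0.21 and 0.18 in KO1 to KO3 against −0.19, −0.11 and 0.22 in WT1 to WT3. The squalene to cholesterol genes stood at −0.23, 0.19 and 0.14 in KO1 to KO3 against −0.18, −0.05 and 0.13 in WT1 to WT3.

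**Figure D4:**
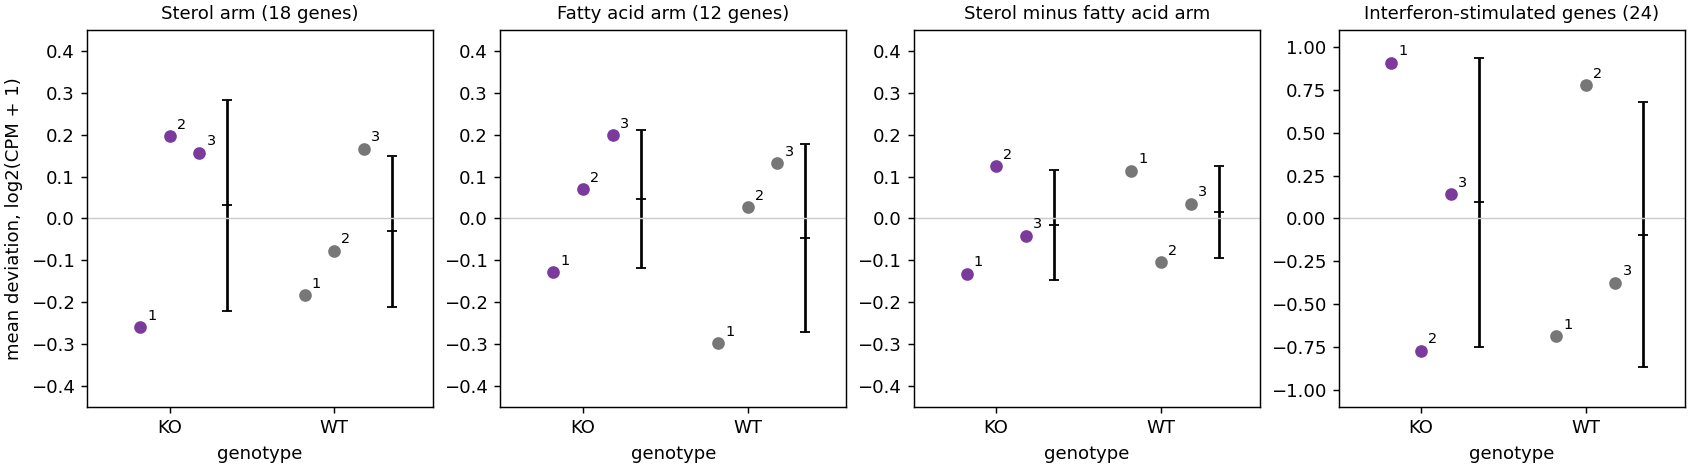
Mean deviation of the sterol arm, of the fatty acid arm, of their difference and of 24 interferon-stimulated genes, on log2(CPM + 1), by library (numbered points), KO left of WT, with the mean and SD of the 3 libraries as bars. KO and WT overlap in all panels, and the interferon panel has a wider axis, from KO2 at −0.77 to KO1 at 0.91.

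Most sterol arm genes shared their lowest KO library and their highest WT library. KO1 was the lowest KO library for 17 of the 18 genes (94.4%), where it was so for 30.1% of tested genes. WT3 was the highest WT library for 17 of the 18, where it was so for 28.3% of tested genes. WT1 was the lowest WT library for 12 of the 18 (66.7%), against 35.5% of tested genes. In the fatty acid arm KO1 was lowest in KO for 8 of 12 genes, WT3 highest in WT for 8 and WT1 lowest in WT for 9, and the difference between the arms was not tested. The lowest of all 6 libraries was KO1 or WT1 for all 18 sterol arm genes (11 and 7), and for 9 of the 12 fatty acid arm genes (3 and 6). Over the 12118 tested genes it was KO1 for 1590 and WT1 for 2977. Genes of a pathway are not independent, so these shares describe the libraries and were not tested.

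Members of both arms varied more between libraries than most genes did. The range over the 6 libraries on log2(CPM + 1) had a median of 0.61 in the sterol arm and 0.60 in the fatty acid arm, against 0.32 over all tested genes. It exceeded that all-gene median for 29 of the 37 genes, including 17 of 18 in the sterol arm (all but Ebp) and 8 of 12 in the fatty acid arm. The median SD within a genotype was 0.28 in KO and 0.20 in WT for the sterol arm, against 0.11 in KO and 0.10 in WT over all tested genes. For the fatty acid arm it was 0.17 in KO and 0.23 in WT. Scd1, Scd2 and Fads2 ranged more widely than 99.8%, 99.0% and 97.7% of tested genes, while Insig2, Elovl5 and Soat1 ranged more widely than 5.65%, 8.20% and 16.9%.

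**Figure D5:**
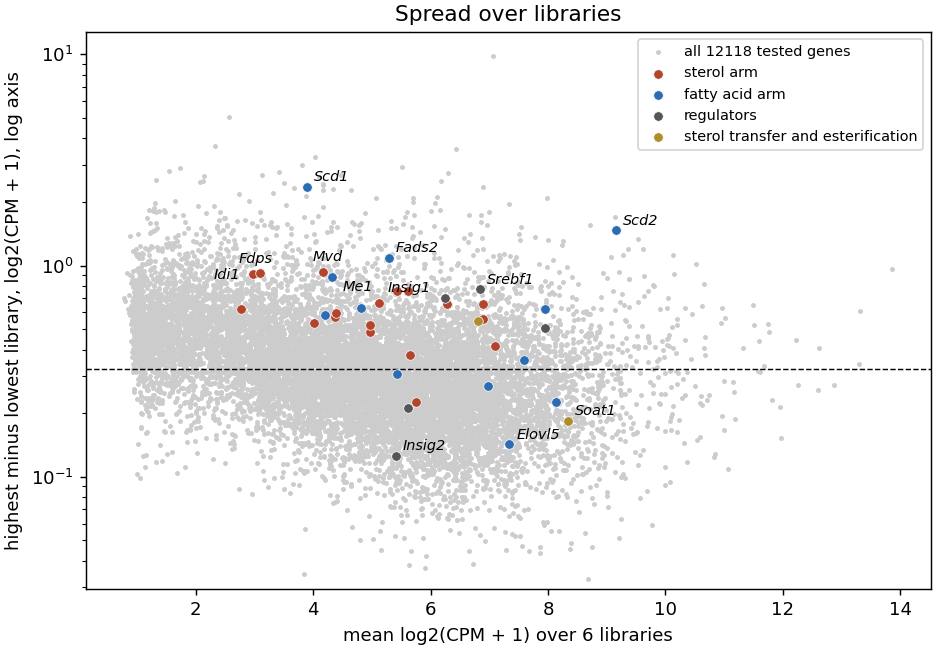
Range over the 6 libraries (highest minus lowest, log axis) against the mean, both on log2(CPM + 1), for the 12118 tested genes (grey) and the 37 synthesis genes (coloured by role), with the all-gene median range of 0.32 as a dashed line. Most synthesis genes lie above the line, and Insig2, Elovl5 and Soat1 lie well under it.

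The split by Xist was set beside the contrast, since the replicate 2 libraries stand apart. Among the libraries with Xist (KO1 and KO3 against WT1 and WT3) the sterol arm differed by −0.04 between KO and WT, and between KO2 and WT2 by 0.27. KO2 exceeded WT2 for 17 of the 18 sterol arm genes. The fatty acid arm differed by 0.12 among the libraries with Xist and by 0.04 between KO2 and WT2. Its carbon, NADPH and chain genes differed by −0.15 and 0.16 in the same order, and its elongation and desaturation genes by 0.31 and −0.04. The sterol minus fatty acid balance differed by −0.16 among the libraries with Xist and by 0.23 between KO2 and WT2. The sign of the sterol arm, of the balance and of both stretches of the fatty acid arm thus turned with the split. The 2 stretches turned in opposite directions, and the sign of the whole fatty acid arm stayed. With 1 library per genotype, the KO2 and WT2 values have no replicate check, and the part of the split in these results was not tested.

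Other gene groups also varied over the libraries, in orders of their own. The 24 interferon-stimulated genes stood at 0.91, −0.77 and 0.14 in KO1 to KO3, against −0.69, 0.78 and −0.37 in WT1 to WT3, far wider than either synthesis arm. The interferon list was highest in KO1 where the sterol arm was lowest, yet low in WT1 where the sterol arm was low too. The 16 genes of the G2 phase and mitosis stood at −0.13, −0.05 and 0.09 in KO1 to KO3, against 0.12, −0.16 and 0.14 in WT1 to WT3. Among the 12 LXR genes the levels were 0.26, 0.16 and −0.08 in KO1 to KO3, against −0.45, 0.39 and −0.28 in WT1 to WT3, with WT1 lowest as for the desaturases. The cholesterol exporter genes Abca1 and Abcg1, named after their values were seen, were likewise lowest in WT1 and highest in WT2. Abca1 stood at 225, 258 and 243 CPM in KO1 to KO3 against 123, 316.5 and 199 CPM in WT1 to WT3, and Abcg1 at 199.6, 158 and 161.5 CPM in KO1 to KO3 against 105, 227 and 154 CPM in WT1 to WT3. The part of these groups in the results of the arms was not tested.

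The rest of the sterol and fatty acid network was read from lists, and none of its genes reached an adjusted p under 0.05 (limma with Benjamini-Hochberg adjustment). Of 14 tested genes of SREBP cleavage and sterol-regulated degradation, 6 had positive and 8 negative fold changes, with a median of −0.01. Those with the smallest unadjusted p were the ubiquitin ligase gene Syvn1 at 0.14 and the lipid droplet gene Aup1 at 0.16. Of 5 other genes of sterol and isoprenoid synthesis, 2 were positive and 3 negative (median −0.02), with Coq2, of ubiquinone synthesis, at 0.10. Of 12 genes of sterol uptake and lysosomal release, 10 were positive and 2 negative (median 0.13), led by Stard3 at 0.20 and Tmem97 at 0.12.

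Of the 12 LXR genes, 11 were positive and 1 negative, with a median of 0.23. Nr1h2, which encodes LXR beta, had the smallest p: it stood at 65.1, 75.4 and 63.9 CPM in KO1 to KO3, against 49.9, 63.1 and 58.6 CPM in WT1 to WT3, with a log2 fold change of 0.25 (unadjusted p = 0.0413, adjusted p = 0.866, limma with Benjamini-Hochberg adjustment). Its KO libraries lay above its WT libraries, which 4.41% of tested genes showed in this direction. The next was Tmem86a at 0.30. Of 22 other fatty acid and glycerolipid genes, 14 were positive and 8 negative (median 0.05), and 3 had all KO libraries above all WT libraries: Acacb, Lpin2 (0.08) and Dgat1 (0.12), the last 2 named after their values were seen. Those with the smallest p were Acacb, the mitochondrial acetyl-CoA carboxylase, at 0.30 (1.45 to 2.12 CPM in KO and 1.09 to 1.31 CPM in WT), and Acsl4, an acyl-CoA synthetase, at −0.19. In the interferon list 21 of 24 were positive (median 0.17), with Cxcl10 at −0.36 and Stat2 at 0.25 as the genes of smallest p. In the G2 and mitosis list 4 of 16 were positive (median −0.07), with Ccna2 at −0.15 and Bub1 at −0.17.

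Per kilobase of exon, the fatty acid arm held the most abundant transcripts of the 37. After Scd2 came Acly at 53.2 CPM, Elovl1 at 46.2 CPM, Elovl5 at 45.9 CPM and Fads1 at 40.0 CPM, as means of the 6 libraries. The sterol arm peaked with Hmgcs1 at 25.9 CPM, Ebp at 23.1 CPM, Msmo1 at 22.4 CPM and Sqle at 21.5 CPM. At the low end stood Tm7sf2 at 1.34 CPM, Acss2 at 1.72 CPM, Fdps at 1.84 CPM, Idi1 at 2.02 CPM and Acaca at 2.48 CPM. Exon lengths are those of all annotated exons of a gene together, so a gene with long unused exons is placed too low.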

How the data were processed

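Polyadenylated RNA was sequenced from 3 KO and 3 WT libraries, with Direct-zol extraction and KAPA mRNA HyperPrep libraries per the labels' protocols. The submitters' processing notes name HISAT2 2.1.0, HTSeq 0.11.0, Cufflinks, Trimmomatic 0.36 and FastQC 0.11.15. Neither these notes nor the labels give the tools' roles, the build, the annotation or the strand setting. The table deposited by the authors holds log2 CPM of 16836 genes, with decimal marks lost in saving, an unadjusted p-value and a log2 fold change. The marks were restored by requiring whole reads, which held for 100% of genes in every library. Limma-voom on those reads gave the authors' deposited p-values within a relative gap of 2.7e-13 (16830 readable p-values), and 725 of them were under 0.05.

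CPM were recomputed on the authors' scaled library sizes (0.982 to 1.02 times the reads). The 12118 genes that reached 1 CPM in 3 or more libraries were fitted with limma 3.58.1 (R 4.3.3, eBayes with an intensity trend) on log2(CPM + 1), which understates the change of low genes. Genotype was the only term, tests were two-sided, with Benjamini-Hochberg adjustment and a threshold of 0.05. Libraries of one genotype differed beyond sampling noise (chi-square per degree of freedom 12.4 to 49.9), so none were merged.

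The genes and all lists were chosen with earlier results of these data known. Values by library are given for the regulators, for the 2 genes with the largest fold change in each role group, for the 2 with the widest range in each arm, and for Scd1 and Scd2. Outside this rule they are also given for Fads2 and Elovl5, named after their values were seen, and for Nsdhl and Ebp, which lie on the X chromosome. The pathway lists give their 2 genes of smallest p, of which 1 is not reported here. Exon lengths, positions and shared 50-base words come from GENCODE M21 on GRCm38, and promoters from RefSeq (GRCm38.p6). Alternatives were other pseudocounts, no filter, limma-voom, plain CPM, a replicate block, and leaving libraries out.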

Additional observations from a re-analysis of the deposited data

How the results depend on the processing

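None of the 37 synthesis genes was called changed under any of the alternatives, in 481 recomputed fold changes. The lowest adjusted p among them was 0.065, against 0.866 in the main fit (limma with Benjamini-Hochberg adjustment). Leaving out 1 library, the lowest was 0.131, for Me1, so the 0.065 came from another alternative. Of the 481 fold changes, 432 kept their sign and 49 turned it. Without both replicate 2 libraries the fold change was −0.031 for Srebf2, −0.11 for Pmvk, −0.085 for Fdps, −0.11 for Fdft1, −0.16 for Cyp51, 0.028 for Soat1, −0.064 for Acaca and −0.098 for Fasn. On plain CPM it was −0.0028 for Cyp51 and −2.4e-05 for Acaca. Leaving out 1 library at a time, these fold changes crossed 0 and ranged as follows: Srebf2 from −0.028 to 0.20, Scap from −0.064 to 0.016, Acat2 from −0.043 to 0.25, Hmgcs1 from −0.18 to 0.15, Mvk from −0.013 to 0.23, Pmvk from −0.065 to 0.20, Fdps from −0.069 to 0.39, Fdft1 from −0.039 to 0.29, Sqle from −0.19 to 0.065, Cyp51 from −0.11 to 0.22, Msmo1 from −0.064 to 0.14, Hsd17b7 from −0.22 to 0.039, Stard4 from −0.15 to 0.12, Soat1 from −0.072 to 0.020, Acss2 from −0.13 to 0.16, Acaca from −0.037 to 0.091, Fasn from −0.064 to 0.25, Elovl6 from −0.19 to 0.14, Scd1 from −0.046 to 1.14, Fads2 from −0.11 to 0.37. The others of the 37 kept their sign and ranged so: Srebf1 from 0.031 to 0.27, Insig1 from 0.017 to 0.38, Insig2 from −0.063 to −0.00039, Mvd from 0.11 to 0.48, Idi1 from −0.47 to −0.048, Lss from 0.019 to 0.36, Tm7sf2 from 0.0012 to 0.23, Nsdhl from 0.025 to 0.27, Ebp from 0.033 to 0.11, Sc5d from 0.00015 to 0.19, Dhcr7 from 0.014 to 0.32, Acly from 0.015 to 0.13, Me1 from −0.66 to −0.22, Elovl1 from 0.028 to 0.10, Elovl5 from −0.11 to −0.041, Scd2 from 0.048 to 0.69, Fads1 from 0.059 to 0.19.

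Among all tested genes, 2 were called, 1 without a filter, 1 with limma-voom, 1 to 8 leaving out 1 library (8 without WT replicate 2) and 23 without both replicate 2 libraries. The cause was not tested. Ube3a kept its call, from −1.55 to −1.38 leaving out 1 library. The sterol arm difference ranged from −0.020 to 0.21 (0.21 without KO replicate 1, below 0 without KO replicate 2, KO replicate 3 or WT replicate 1). That of the fatty acid arm ranged from −0.032 (without WT replicate 1) to 0.18. The sterol minus fatty acid difference ranged from −0.10 to 0.027. Correlations of same-numbered deviations from the genotype mean were −0.22, −0.13 and 0.14, while Xist was near 0 in both replicate 2 libraries. With 3 libraries per genotype these correlations cannot decide whether the replicate numbers mark pairs. With the replicate block 2 genes and none of the 37 were called, with adjusted p = 0.0318 for Ube3a (limma).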
